A study of Rattus norvegicus with 458 samples.

Results

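The miR-30 family was followed through 23 tissues of the rat. Its members were the names of the miRNA count table in which a part matched miR-30a to miR-30e on either arm, without precursor entries. This gave 22 of 7534 names. Of these, 11 were single names and 11 were composite names for sequences that the authors could not place on 1 precursor. The 7 names described in depth are miR-30a-5p, miR-30a-3p, miR-30b-5p, miR-30c-5p, miR-30d-5p, miR-30e-5p and miR-30e-3p. Every single member was counted in 215 of 215 libraries, and the composite names held 0.0796% of the 60641873 family counts. The animals were naïve Sprague Dawley rats aged 12 to 13 weeks, with no treatment or altered gene in any group. Of each of 19 tissues there were libraries of 10 rats, 5 of each sex. Testicle, Ovary and Uterus had 5 rats each, and the dorsal root ganglion (DRG) had 10 technical libraries of 2 pools, 1 per sex, which were used as 2 samples. The paper states that the DRG RNA was provided by Takeda Pharmaceuticals. The labels name no rat, extraction or RNA integrity for DRG. Whole organs or organ parts were sequenced, so that fewer cells of a type and less RNA per cell cannot be told apart. Cortex, Medulla, Heart and Pancreas are compared directly, with 10 rats in each.

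MicroRNAs are cut from hairpin precursors whose arms each can give a mature strand, named 5p and 3p, and usually one arm is kept in Argonaute while the other is degraded. Bases 2 to 8 of the mature strand, the seed, pair with target messages, so strands with the same seed have overlapping target sets. In the miR-30 family the 5p arms are the abundant strands. The family is known for its role in nephron and podocyte development in the kidney, for repression of connective tissue growth factor in the heart, and for its abundance in many differentiated epithelia.

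The mature sequences below are those of RefSeq on the rat assembly GRCr8, for the members the results turn on, and show what the 5p arms share. The seed is in capitals.
miR-30a-5p: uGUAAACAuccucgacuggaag
miR-30e-5p: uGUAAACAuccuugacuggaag
miR-30c-5p: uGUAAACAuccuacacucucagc
miR-384-5p: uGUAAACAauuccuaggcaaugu
miR-30a-3p: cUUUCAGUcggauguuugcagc
miR-30c-1-3p: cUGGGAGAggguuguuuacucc
miR-30c-2-3p: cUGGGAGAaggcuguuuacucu

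Of 693 mature rat sequences in the reference table, 4 had the seed GUAAACA. They were miR-30a-5p, miR-30c-5p, miR-30e-5p and, from outside the family, miR-384-5p. Positions are counted from 1 at the 5′ end, and the base of miR-30a-5p comes first. miR-30e-5p differed from miR-30a-5p by C13U alone, so that reads of these members are separated by a single base. miR-30c-5p differed over the first 22 bases by C13A, G14C, G18C, G19U and A20C. Sequences were matched for 6 of the 11 single members. The reference table held no sequence for miR-30b-5p, miR-30b-3p, miR-30d-5p, miR-30d-3p and miR-30e-3p. They are named only, and their absence from the seed count does not show that they lack the seed.

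The loci lie in 3 places of GRCr8. Mir30a, with its 5p arm at chr9:33233946-33233967 on the plus strand, and Mir30c2, with its 5p arm at chr9:33253695-33253717 on the same strand, are neighbours on chromosome 9. No annotated gene spans Mir30a, and LOC134480562 and Rbx1-ps1 span Mir30c2. Mir30e, with its 5p arm at chr5:139637504-139637525 on the minus strand, and Mir30c1, at chr5:139634505-139634527 on the minus strand, lie within Nfyc, a gene for a subunit of a CCAAT-binding transcription factor. Mir30b and Mir30d lie within LOC102551574 on chromosome 7. miR-30c-5p is thus the same strand from a pair of precursors, and only their 3p arms tell them apart.

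Library totals, summed over all names, lay between 376401 and 17725805 counts with a median of 4816409. They were 2243745 to 8943451 in Cortex, 3700110 to 8658926 in Medulla, 3853313 to 10086504 in Heart and 1745243 to 6705848 in Pancreas. The lowest family count in a library was 12766 and the lowest count of a listed member 52. The summed kidney list (miR-192-5p, miR-194-5p, miR-10a-5p and miR-10b-5p) had a median of 460583 CPM (counts scaled to a library total of 1000000) in Cortex and 546995 CPM in Medulla. The brain list (miR-124-3p, miR-9-5p and miR-9-3p) had a median of 1.32 CPM in each, against 5923 CPM in Cerebrum. In every tissue 2 of its 3 markers had a median of 0, so it rests on a single marker. Markers were looked up by these names, with or without the arm, so a median of 0 does not show that the miRNA is absent. The markers place Cortex in the kidney and not in the brain. The kidney list is not specific, since its median was 505130 CPM in Adrenal. The heart list (miR-208a-3p, miR-499-5p, miR-1-3p and miR-133a-3p) had a median of 141381 CPM in Heart and was higher still in both skeletal muscles, and the pancreas list (miR-216a-5p, miR-216b-5p, miR-217-5p and miR-375-3p) had its highest median in Pancreas, 49122 CPM. In 10 libraries outside these 4 tissues (Duodenum of rats 2, 4, 7 and 11, Hippocampus of rats 2, 6 and 7, Adrenal of rat 8, Ovary of rat 11 and Uterus of rat 8) the profile correlated better with another tissue than with its own by more than 0.05. The labels were kept, and values without these libraries are given where they move.

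The family took 5.77% of all miRNA counts, and its level was highest in the kidney and the heart. In Cortex the family total had a lowest value of 91983 CPM, a median of 122574 CPM and a highest of 131344 CPM. The corresponding values were 91839, 113246 and 126705 CPM in Medulla and 92168, 110308 and 126092 CPM in Heart. These ranges lay almost on top of each other. In Pancreas the family total had a lowest value of 34060 CPM, a median of 41684 CPM and a highest of 57586 CPM, and no Pancreas library reached the other 3 tissues.

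The differences between Cortex, Medulla and Heart were smaller than the spread between rats. On the log2 scale Cortex minus Medulla was 0.05 ± 0.06 (SE; adjusted p = 0.512), Cortex minus Heart 0.07 ± 0.07 (adjusted p = 0.486) and Medulla minus Heart 0.02 ± 0.06 (adjusted p = 0.782). These were two-sided permutation tests with 100000 resamples, adjusted over the 6 pairs. Against Pancreas the family total was 2.79-fold higher in Cortex (log2 difference 1.48 ± 0.09), 2.69-fold higher in Medulla and 2.66-fold higher in Heart. Each of these permutation tests gave p = 1e-05, the smallest that the resamples can give, and an adjusted p of 2e-05. All 10 Pancreas samples were re-extracted and had RNA integrity numbers (RIN) of 4.9 to 6.8, whereas Medulla and Heart were first extractions with 7.4 to 8.1 and 7.6 to 8.1, and Cortex had 8 first extractions and 2 re-extractions with 6.3 to 8.1. In every comparison with Pancreas below, of levels, members, shares, arm ratios, ends and locus ratios, the tissue cannot be told apart from its extraction and RNA integrity.

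Over the 23 tissues the mean family total ran from 117529 ± 12387 CPM (SD, n = 10) in Cortex to 6919 ± 2042 CPM (n = 10) in WholeBlood, a ratio of 16.99. Kidney (113171 CPM), Medulla (113063 CPM) and Heart (111903 CPM) followed Cortex, and among these 4 each was within 1 SD of the next. Cerebellum (93495 CPM), Muscle - Biceps (84551 CPM) and Cerebrum (74554 CPM) came next. Muscle - Soleus (70524 CPM), Brainstem (66754 CPM), Testicle (64752 CPM) and Liver (58789 CPM) formed the middle, where neighbours were again mostly within 1 SD. Pancreas was 14th with 42469 ± 7546 CPM. Its neighbours DRG, Ovary and Adrenal differed from it by less than 1 SD. The low end held Stomach_Glandular (19143 CPM), Ileum (15472 CPM), Jejunum (14696 CPM), Uterus (13059 CPM) and Stomach_Non-Glandular (8288 CPM). Without the libraries out of place the means of Hippocampus and Duodenum moved from 53276 to 63798 CPM and from 35894 to 21227 CPM. Those of Ovary and Uterus moved from 41960 to 47153 CPM and from 13059 to 10446 CPM, and that of Adrenal from 41941 to 44282 CPM. Ovary and Adrenal then stood above Pancreas, so its rank holds with all libraries kept.

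**Figure D1:**
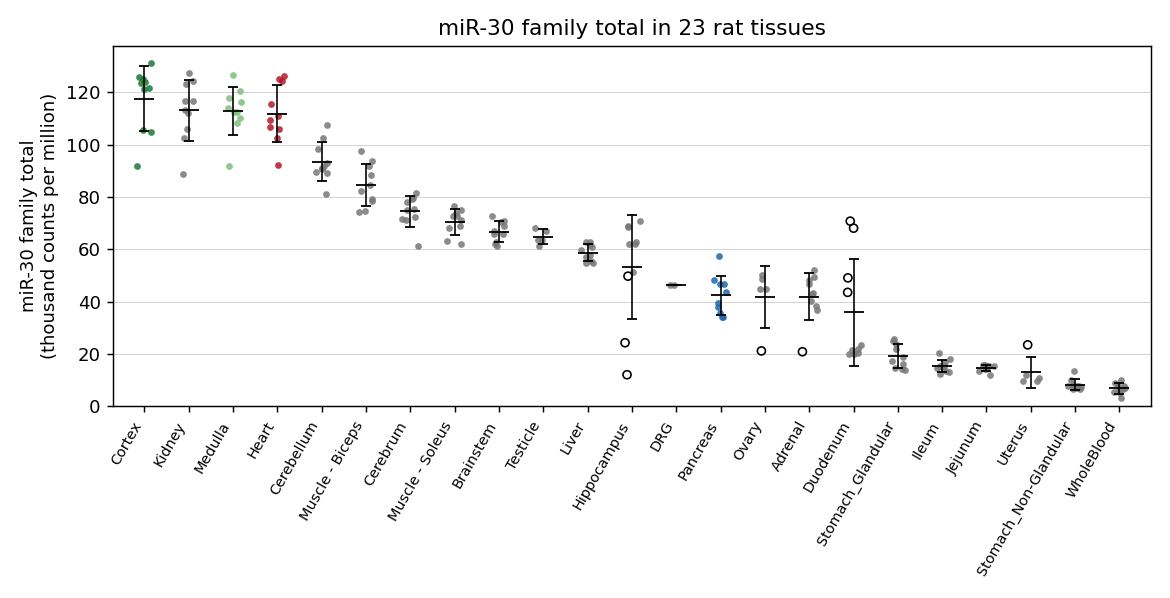
Family total (y axis, in units of 1000 CPM) for each tissue (x axis, ordered by mean). Each point is 1 rat (DRG: 1 pool), bars give mean ± SD, and open circles are the 10 libraries out of place. Cortex, Kidney, Medulla and Heart stand highest with overlapping points. With all libraries kept Pancreas is 14th at a mean of 42469 CPM, and WholeBlood is lowest at 6919 CPM.

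CPM is a share of a library, so the most counted name bears on every other value. In Pancreas a composite name with miR-148a-3p took 59.4% of counts, in WholeBlood a composite with miR-486-5p 85.2%, in Heart miR-22-3p 33.2%, in Cortex miR-10a-5p 21.9% and in Medulla miR-10a-5p 32.1%. The most counted name of each library (DRG: pool) was then taken out of its total. The order became Heart (167496 CPM), Medulla (166786 CPM), Kidney (151510 CPM) and Cortex (150858 CPM). Pancreas moved up to 7th with 103897 CPM, WholeBlood to 20th with 46171 CPM, and Ileum became lowest with 22426 CPM. The ratio of the highest to the lowest mean was then 7.47. On this scale the log2 difference of Cortex minus Medulla was -0.15 (permutation test, adjusted p = 0.00591) and that of Cortex minus Heart -0.15 (adjusted p = 0.0229). Against Pancreas the log2 differences shrank to 0.54 in Cortex, 0.69 in Medulla and 0.69 in Heart and were still past the threshold.

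Single names of let-7 and miR-98, another family that differentiated cells hold in quantity, were summed as a comparator. This sum held names of the 5p arm or without an arm and no composite names, so it is a part of that family. The ratio of the miR-30 total, which includes composite names, to this let-7 and miR-98 total needs no library total. It was highest in Medulla (5.69), Kidney (5.24) and Muscle - Biceps (5.19), followed by Cortex (4.54) and Heart (4.49). Pancreas was 20th with 0.966 ± 0.133 (SD, n = 10), and WholeBlood was lowest with 0.308. By this ratio Medulla was higher than Heart (log2 difference 0.35, adjusted p = 0.00844) and Cortex was lower than Medulla (log2 difference -0.32, adjusted p = 0.00649, permutation tests). The let-7 and miR-98 total itself was higher in Pancreas (mean 44016 CPM) than in Cortex (26302 CPM), Heart (25395 CPM) and Medulla (20409 CPM). The order among the kidney parts and the heart, and the size of the gap to Pancreas, thus depended on the scale, and the direction of that gap did not. The miR-29 family, another comparator, had a mean of 2938 CPM in Pancreas, 2922 CPM in Cortex, 2781 CPM in Medulla and 3431 CPM in Heart, with overlapping ranges in all 4.

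Each listed member was set against the mean of the other 22 tissues with edgeR's quasi-likelihood test, with Benjamini-Hochberg adjustment over 1641 names. In Cortex, 7 of 7 were higher, where 21.3% of all names were called higher. In Medulla (27.3% of all names higher) and in Heart (28.9%) it was again 7 of 7. The median log2 fold change of the 7 was 1.41 in Cortex, 1.60 in Medulla and 1.71 in Heart, against 0.18, 0.27 and 0.22 over all names. Kidney and Liver also had 7 of 7 higher (23.8% and 30.8% of all names), Muscle - Biceps had 6 (18.3%) and Muscle - Soleus 5 (19.3%). In Pancreas 2 were higher (29.5% of all names) and 3 lower (13.3% of all names). Brainstem and Hippocampus had 7 of 7 lower, where 30.1% and 11.8% of all names were called lower. Brainstem was 9th by family CPM and low in this test, and Cerebrum had 6 members lower (27.7% of all names). WholeBlood, lowest by family CPM, had 2 members higher (36.1% of all names) and 1 lower (16.6%). The test scales by the upper quartile, and the median log2 fold change of all names was -0.91 in Brainstem. Duodenum (4.45% of all names lower), Testicle (16.8%) and Stomach_Non-Glandular (9.02%) had 6 members lower each. Without the libraries out of place, 5 were lower in Duodenum and 3 were higher in WholeBlood. The counts of the other tissues named here stayed as they were.

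With DESeq2 the median over all names moved by -0.72 in Cortex, -0.77 in Medulla, -0.69 in Heart and -0.12 in Pancreas, and with TMM scaling by -0.23, -0.27, -0.44 and -0.07. The direction of every listed member in these 4 tissues was the same under both. miR-30e-3p in Cortex was not called with DESeq2 (log2 fold change 0.25, adjusted p = 0.0594). In Pancreas the higher call of miR-30b-5p was lost with no filter on low counts (adjusted p = 0.0788), miR-30e-5p was called lower with DESeq2 (-0.34, adjusted p = 0.00408), and miR-30a-3p was called higher when predicted and precursor names were left out (0.21, adjusted p = 0.0191).

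miR-30a-5p, the most counted member with 52.7% of all family counts, was highest in the kidney. Its level had a lowest value of 57975 CPM, a median of 75481 CPM and a highest of 85291 CPM in Cortex, and 57278, 72531 and 80158 CPM in Medulla. In Heart the values were 42137, 50602 and 62711 CPM and in Pancreas 22014, 27825 and 40290 CPM. Heart overlapped both kidney parts at its upper end, and Pancreas overlapped none of the 3. Against the other tissues the log2 fold change by edgeR was 1.96 ± 0.12 (SE) in Cortex, 2.36 ± 0.11 in Medulla, 1.71 ± 0.12 in Heart and 0.53 ± 0.14 in Pancreas (adjusted p = 0.000606).

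miR-30e-5p, which differs from miR-30a-5p by 1 base, had its highest mean of the 23 tissues in Heart. Its level there had a lowest value of 18267 CPM, a median of 27925 CPM and a highest of 30810 CPM. The corresponding values were 12118, 17928 and 20486 CPM in Cortex, 11385, 14987 and 17327 CPM in Medulla and 4775, 5825 and 7349 CPM in Pancreas. A single Heart library, that of rat 10, lay within the range of Cortex, and Pancreas stood apart from all others. The log2 fold change against the other tissues was 2.37 ± 0.12 in Heart and -0.19 ± 0.16 in Pancreas, which was not called by edgeR (adjusted p = 0.385).

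miR-30c-5p, the strand given by both the chromosome 5 and the chromosome 9 precursor, was also highest in Heart, with a lowest value of 11419 CPM, a median of 12441 CPM and a highest of 18200 CPM. The values were 8179, 11050 and 12202 CPM in Cortex and 8290, 10558 and 12448 CPM in Medulla. Pancreas, with 1421, 2023 and 2773 CPM, was far below. Against the other tissues Heart was higher by 2.28 ± 0.13 on the log2 scale and Pancreas lower, with a log2 fold change of -0.82 ± 0.17 (edgeR, adjusted p = 2.46e-05).

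miR-30d-5p and miR-30b-5p come from the same stretch of chromosome 7. miR-30d-5p was highest in Cerebellum with a mean of 23084 CPM. In Heart it had a lowest value of 15048 CPM, a median of 17321 CPM and a highest of 21719 CPM, in Cortex 11412, 13942 and 18156 CPM, in Medulla 10331, 12537 and 15631 CPM and in Pancreas 3541, 4283 and 5182 CPM. Pancreas again overlapped none of the others, and its log2 fold change against the other tissues was -0.79 ± 0.16. miR-30b-5p behaved otherwise. It was highest in Liver with a mean of 2626 CPM and lowest in WholeBlood with 42.3 CPM, the widest span of the 7 members (a ratio of 62.0). Its level had a lowest value of 930 CPM, a median of 1290 CPM and a highest of 1512 CPM in Pancreas, against 1021, 1725 and 2101 CPM in Cortex, 960, 1390 and 2053 CPM in Medulla and 1380, 1610 and 2036 CPM in Heart. It was the 1 member for which the CPM ranges of Pancreas overlapped those of all 3 other tissues. In the test against the other tissues it was higher in Pancreas (log2 fold change 0.56 ± 0.14, adjusted p = 0.000501).

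The 3p arms were less counted in all 4 tissues. miR-30e-3p was highest in Heart with a lowest value of 727 CPM, a median of 874 CPM and a highest of 1081 CPM. The values were 364, 434 and 582 CPM in Cortex, 286, 394 and 538 CPM in Medulla and 111, 142 and 216 CPM in Pancreas, and Heart overlapped none of them. miR-30a-3p had a lowest value of 487 CPM, a median of 571 CPM and a highest of 896 CPM in Cortex and 473, 579 and 694 CPM in Medulla. Heart followed with 395, 449 and 526 CPM and Pancreas with 159, 230 and 433 CPM. The highest means of miR-30a-3p were in Muscle - Biceps (695 CPM) and Muscle - Soleus (647 CPM), where its 5p partner was not highest. In Pancreas miR-30e-3p was lower than in the other tissues (log2 fold change -0.78 ± 0.15) and miR-30a-3p was not called (0.17 ± 0.14, adjusted p = 0.326).

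miR-384-5p, which shares the seed but not the rest of the sequence, went another way. It had a median of 649 CPM in Cerebrum and 539 CPM in Cerebellum. In the 4 tissues its medians were 1.13 CPM in Cortex, 1.51 CPM in Medulla, 2.30 CPM in Heart and 10.3 CPM in Pancreas. It was lower than in the other tissues in Cortex, Medulla and Heart (log2 fold change -2.51, -1.61 and -1.11 by edgeR) and higher in Pancreas (0.97, adjusted p = 0.00405).

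Between pairs of the 4 tissues, the listed members separated Heart from the kidney by member. They separated Pancreas from the rest by level, by an amount that differed between members. In Cortex against Medulla edgeR called 0 of 7 members (2.74% of all names called), and 0 at an unadjusted p under 0.05. DESeq2 and TMM scaling gave 0 as well, but when predicted and precursor names were left out, 4 members were lower in Cortex. These were miR-30a-5p (log2 fold change -0.53, adjusted p = 0.000759), miR-30a-3p (-0.50), miR-30c-5p (-0.47) and miR-30e-3p (-0.34, adjusted p = 0.0254).

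In Cortex against Heart 4 of 7 were lower in Cortex, where 13.0% of all names were called lower. miR-30e-3p was lower by a log2 fold change of -1.26 ± 0.20 and miR-30e-5p by -0.91 ± 0.22. miR-30c-5p (-0.57, adjusted p = 0.0401) and miR-30d-5p (-0.56, adjusted p = 0.0316) were near the threshold and were lost with TMM scaling (adjusted p = 0.290 and 0.227). Without rat 4 both were lost too (adjusted p = 0.0506 and 0.0664), and without rat 5 miR-30c-5p was (0.0963). In Medulla against Heart 2 members were higher (9.87% of all names) and 2 lower (9.75% of all names). miR-30e-3p (-1.04 ± 0.20) and miR-30e-5p (-0.73 ± 0.22) were lower in Medulla. miR-30a-5p was higher in Medulla (0.62 ± 0.20, adjusted p = 0.0149), but not without rat 8 (0.105) or rat 10 (0.0888). The call of miR-30a-3p (0.50, adjusted p = 0.0452) was lost without any 1 of rats 2, 3, 5, 6, 8, 10 and 11 (adjusted p up to 0.222) and when the rat was a block (0.0837). With the block miR-30d-5p was lower in Medulla (-0.47, adjusted p = 0.0371).

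Against Pancreas most members were called. Cortex had 6 of 7 higher (16.0% of all names called higher), Medulla 7 of 7 (17.3%) and Heart 7 of 7 (18.5%). The difference was largest for miR-30c-5p in Cortex and Medulla, with a log2 fold change of 2.39 ± 0.23 and 2.73 ± 0.23. In Heart miR-30c-5p (2.97 ± 0.23), miR-30e-3p (2.83 ± 0.21), miR-30e-5p (2.44 ± 0.23) and miR-30d-5p (2.28 ± 0.21) were all above 2. miR-30a-5p was higher by 1.36, 1.74 and 1.13 in Cortex, Medulla and Heart. miR-30b-5p was the exception. It was not called in Cortex (0.43, adjusted p = 0.107) unless rat 9 was left out (0.49, adjusted p = 0.0443), and its call in Medulla (0.56, adjusted p = 0.0277) was lost with TMM scaling (0.168), with DESeq2 (0.922), when the rat was a block (0.103) and without any 1 of rats 2, 4, 8, 10 and 11 (up to 0.0743). In Heart (0.69, adjusted p = 0.0042) the call was lost with TMM scaling (0.238) and with DESeq2 (0.156). In these 3 comparisons the median over all names moved by -0.53, -0.61 and -0.54 with DESeq2 and by -0.16, -0.15 and -0.33 with TMM scaling.

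Shares of the family do not depend on the rest of the library, though they sum to 100% and so move together. miR-30a-5p was the largest member in each of the 4 tissues. Its share of the family counts had a lowest value of 64.6%, a median of 66.3% and a highest of 70.0% in Pancreas, the highest mean share of the 23 tissues (66.8% ± 1.72, SD, n = 10). The values were 61.3%, 63.8% and 68.0% in Medulla, 58.2%, 62.2% and 64.9% in Cortex and 44.1%, 45.6% and 50.1% in Heart. No Heart library reached the share of any library of the other 3 tissues. The mean was lower in Heart by 15.8 percentage points than in Cortex, by 18.3 than in Medulla and by 21.0 than in Pancreas (permutation tests, adjusted p = 2.21e-05 for each).

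In Heart the shares of miR-30e-5p, miR-30d-5p and miR-30c-5p were higher than in each of the other 3 tissues. miR-30e-5p had a lowest share of 19.8%, a median of 24.3% and a highest of 25.8% in Heart, against 13.1%, 14.8% and 16.4% in Cortex, 11.5%, 13.1% and 14.4% in Medulla and 12.2%, 13.9% and 15.8% in Pancreas. Heart stood above the 3 others without overlap, by 9.29, 10.7 and 9.89 points (adjusted p = 2.21e-05 each). miR-30d-5p had a lowest, median and highest share of 14.1%, 15.9% and 17.5% in Heart, 10.7%, 12.2% and 14.4% in Cortex, 9.79%, 11.3% and 12.3% in Medulla and 9.00%, 10.1% and 11.6% in Pancreas. Heart overlapped Cortex through 1 Cortex library, that of rat 2, and overlapped neither Medulla nor Pancreas.

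In Pancreas the shares of miR-30c-5p and miR-30b-5p stood out in opposite directions. miR-30c-5p had a lowest share of 4.00%, a median of 4.85% and a highest of 5.24% in Pancreas, the lowest mean of the 23 tissues. The values were 7.08%, 9.04% and 10.9% in Cortex, 7.15%, 9.17% and 11.4% in Medulla and 9.63%, 11.4% and 14.4% in Heart. Pancreas lay below all of them, by 4.36, 4.43 and 6.91 points in the means. miR-30b-5p had a lowest share of 2.60%, a median of 2.90% and a highest of 3.32% in Pancreas, and means of 1.42% in Cortex, 1.26% in Medulla and 1.49% in Heart. Here Pancreas lay above all of them, by 1.49, 1.65 and 1.42 points (adjusted p = 2.21e-05 for each of these 6 permutation tests).

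**Figure D2:**
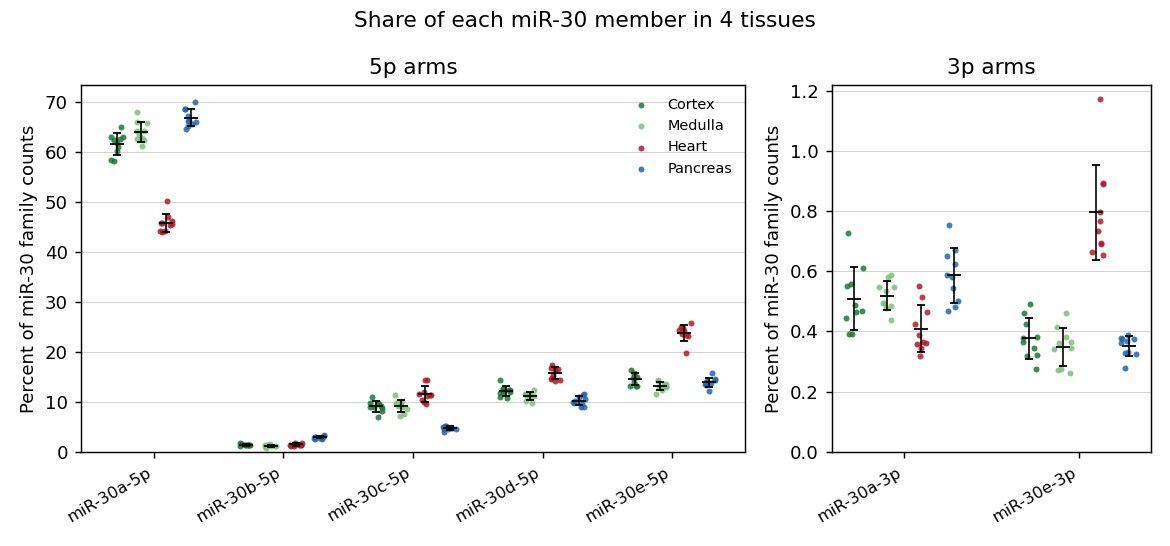
Share of each listed member in the family counts (y axis, percent) for the 5p arms (left) and the 3p arms (right, with its own scale) in 4 tissues. Each point is 1 rat and bars give mean ± SD. The miR-30a-5p points of Heart (44.1% to 50.1%) lie below and its miR-30e-5p points (19.8% to 25.8%) above all others, and Pancreas has the lowest miR-30c-5p points.

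Of the 42 share tests (7 members in 6 pairs), 31 passed the threshold, and 27 to 31 did when any 1 rat was left out. Between Cortex and Medulla the differences were small. miR-30e-5p had the larger share in Cortex by 1.38 points (adjusted p = 0.0108). The differences of miR-30a-5p (-2.50 points, adjusted p = 0.024) and miR-30d-5p (0.974 points, adjusted p = 0.0271) in permutation tests were lost without rat 5 or rat 7 (0.0530 and 0.0566 for miR-30a-5p), and that of miR-30d-5p also without rat 9. The larger share of miR-30a-3p in Cortex than in Heart (means 0.509% and 0.409%, adjusted p = 0.0317) was lost without any 1 of rats 2, 3, 4, 5, 7 and 9, with adjusted p up to 0.0846. That of miR-30d-5p in Medulla over Pancreas (means 11.2% and 10.2%, adjusted p = 0.027) was lost without rat 2, 8, 9 or 10, with adjusted p up to 0.0702. The smaller share of miR-30b-5p in Medulla than in Heart (adjusted p = 0.0403) was lost without rat 5, 7, 8, 9 or 10 (adjusted p up to 0.138) and when the rats were paired (0.0794, exact sign flips).

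Elsewhere the makeup of the family varied more. The mean share of miR-30a-5p was lowest in Jejunum (38.1%). miR-30e-5p ran from 7.65% in DRG to 25.9% in WholeBlood, miR-30d-5p from 10.2% in Pancreas to 24.7% in Ileum and miR-30c-5p from 4.76% in Pancreas to 14.8% in Brainstem. miR-30b-5p ran from 0.590% in WholeBlood to 4.48% in Liver. Pancreas was therefore at an end of the 23 tissues for 3 of the 7 members, namely miR-30a-5p, miR-30c-5p and miR-30d-5p.

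The arm ratio of miR-30a differed between the 4 tissues by less than its spread between rats. The log2 ratio of 5p to 3p counts had a lowest value of 6.44, a median of 6.98 and a highest of 7.38 in Cortex, 6.74, 6.96 and 7.24 in Medulla, 6.37, 6.98 and 7.12 in Heart and 6.54, 6.84 and 7.16 in Pancreas. All 4 ranges overlapped. The means corresponded to 125 reads of the 5p arm per 3p read in Cortex and in Medulla, 116 in Pancreas and 115 in Heart. 0 of the 6 differences passed the permutation test, and 0 had an unadjusted p under 0.05. The largest was 0.13 ± 0.10 for Medulla minus Heart (adjusted p = 0.515). With all libraries kept, the 4 tissues and Kidney, which was highest at a mean of 7.00, led the 23 tissues. Without its library out of place the mean of Ovary moved from 6.74 to 6.86, just above Pancreas (6.85) and Heart (6.83). Muscle - Soleus was lowest at 5.92, or 61.0 reads of the 5p arm per 3p read.

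The arm ratio of miR-30e was lower than that of miR-30a in every tissue mean. The log2 ratio had a lowest value of 5.03, a median of 5.24 and a highest of 5.63 in Pancreas, the highest mean of the 23 tissues with all libraries kept (5.32). Without its library out of place Ovary had a mean of 5.35. The log2 ratio was 4.74, 5.39 and 5.66 in Cortex, 4.94, 5.20 and 5.64 in Medulla and 4.08, 5.04 and 5.25 in Heart. Heart held the lowest libraries, but its range overlapped the other 3. The means were 40.3, 39.9, 38.8 and 31.1 reads of the 5p arm per 3p read in Pancreas, Cortex, Medulla and Heart. On this scale Ovary was highest, at 40.4 with all libraries kept. The only difference past the threshold was Heart minus Pancreas (-0.39 ± 0.13, permutation test, adjusted p = 0.0322). It was lost without rat 4, 5, 8, 9 or 11 (adjusted p from 0.0533 to 0.0814) and in the runs of 1 flow cell alone (-0.32, adjusted p = 0.124). Cortex minus Heart (0.36, adjusted p = 0.084) and Medulla minus Heart (0.34, adjusted p = 0.0796) missed it, and Medulla minus Heart passed without rat 3 (0.39, adjusted p = 0.0387). DRG (mean 3.94) and Muscle - Soleus (3.96) were lowest.

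**Figure D3:**
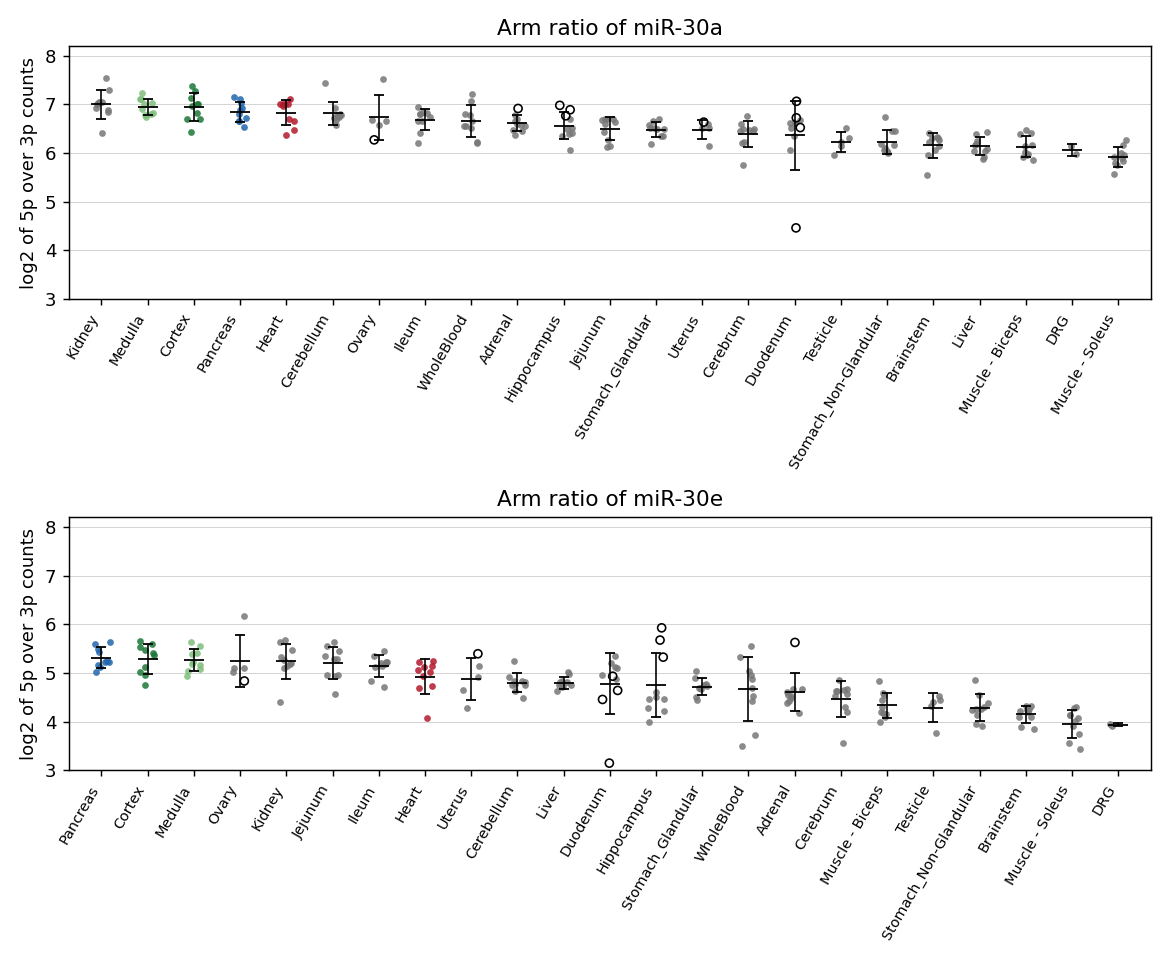
Log2 ratio of 5p to 3p counts (y axis) for miR-30a (top) and miR-30e (bottom) in each tissue, ordered by mean. Points are rats (DRG: pools), bars mean ± SD, and open circles libraries out of place. miR-30a lies near 6.9 in Cortex, Medulla, Heart and Pancreas, and the miR-30e mean of Heart (4.93) is below those of Pancreas (5.32), Cortex (5.29) and Medulla (5.26).

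The isomiR table gives each sequence counted under a name, and here the Pancreas differed most. Over all libraries 61.9% of miR-30a-5p counts ended beyond the 3′ end of the reference, and the reference sequence itself was 2.80%. For miR-30e-5p these shares were 93.5% and 1.16%, and for miR-30c-5p 87.0% and 10.3%. The sequences that carried most counts are shown with bases 2 to 8 in capitals.
miR-30a-5p, 24 bases: uGUAAACAuccucgacuggaagcu
miR-30a-5p, 20 bases: uGUAAACAuccucgacugga
miR-30a-5p, 21 bases: uGUAAACAuccucgacuggaa
miR-30e-5p, 24 bases: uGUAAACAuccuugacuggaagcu
miR-30c-5p, 24 bases: uGUAAACAuccuacacucucagcu
miR-30a-3p, 22 bases: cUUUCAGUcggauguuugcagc
miR-30a-3p, 21 bases: cUUUCAGUcggauguuugcag
miR-30a-3p, 21 bases with a later start: uUUCAGUCggauguuugcagc

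The 24-base miR-30a-5p took a mean of 45.5% of that name's counts in Cortex, 45.5% in Medulla, 51.2% in Heart and 21.2% in Pancreas. The 20-base sequence took 29.4%, 24.7%, 17.5% and 49.3%. Pancreas was thus the 1 tissue of the 4 in which the shorter sequence was the most counted. The 24-base miR-30e-5p took 76.6%, 73.3%, 74.4% and 61.3% in the same order of tissues, and the 24-base miR-30c-5p 79.9%, 78.7%, 79.9% and 56.8%. The 22-base miR-30a-3p took 44.2%, 42.9%, 39.2% and 20.8%, while the 21-base sequence that lacks its last base took 9.62%, 7.12%, 10.1% and 34.2%. The shorter 3′ end in Pancreas was therefore seen on both arms of miR-30a. These shares of single sequences include the flow cell lane described below, whose early starts do not count for the sequences shown. With that lane, other starts of miR-30a-5p averaged 0.245% in Cortex, 4.43% in Medulla, 4.44% in Heart and 4.22% in Pancreas. Counted at any start, the end at base 24 averaged 47.7% in Cortex and 49.1% in Medulla.

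The share of miR-30a-5p counts beyond the reference 3′ end had a lowest value of 24.2%, a median of 29.7% and a highest of 36.6% in Pancreas, against 50.5%, 58.6% and 63.7% in Cortex, 58.0%, 60.3% and 64.3% in Medulla and 65.0%, 68.3% and 73.6% in Heart. Pancreas and Heart each stood apart from every library of the other 3 tissues. The differences to Pancreas were 27.9, 30.7 and 38.3 percentage points (permutation tests over 84 end measures, adjusted p = 5.25e-05 each). Cortex and Medulla differed by -2.79 points (adjusted p = 0.129). For miR-30c-5p the means were 84.8%, 85.9% and 88.9% in Cortex, Medulla and Heart and 63.2% in Pancreas, and for miR-30e-5p 92.9%, 92.8%, 94.8% and 79.8%. Pancreas did not overlap the others in either. miR-30b-5p, whose reference is its most counted sequence, had 2.15%, 2.46%, 2.24% and 2.07% beyond the end and passed in no pair (lowest adjusted p = 0.113). Of the 84 tests 28 passed the threshold, and 28 to 39 did without 1 rat.

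The end at base 20 was then counted in all tissues, a measure added after the data were seen. In Pancreas 45.3% to 59.6% of miR-30a-5p counts ended there, with a median of 53.5% and the highest mean of the 23 tissues (52.9% ± 5.16, SD, n = 10). Testicle (39.7%) and Adrenal (37.5%) followed. Cortex had a lowest value of 25.2%, a median of 30.1% and a highest of 39.3%, Medulla 22.6%, 26.6% and 30.0%, and Heart 14.5%, 18.9% and 22.3%. Heart lay below Cortex, Medulla and Pancreas without overlap, and Pancreas above all. Muscle - Biceps (10.3%) and WholeBlood (4.12%) were lowest. Pancreas exceeded Cortex by 22.4, Medulla by 26.5 and Heart by 34.0 points (permutation tests over 36 added measures, adjusted p = 1.44e-05 each), and Cortex exceeded Medulla by 4.11 points (adjusted p = 0.00619). The end at base 24 ran the other way, from 22.9% in Pancreas to 77.5% in WholeBlood, with Heart 4th at 56.2%. miR-30d-5p and miR-30e-5p had the same order at base 20. For miR-30d-5p the means were 29.6% in Pancreas, 15.1% in Cortex, 13.7% in Medulla and 9.18% in Heart, and for miR-30e-5p 7.83%, 2.28%, 2.11% and 0.982%.

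**Figure D4:**
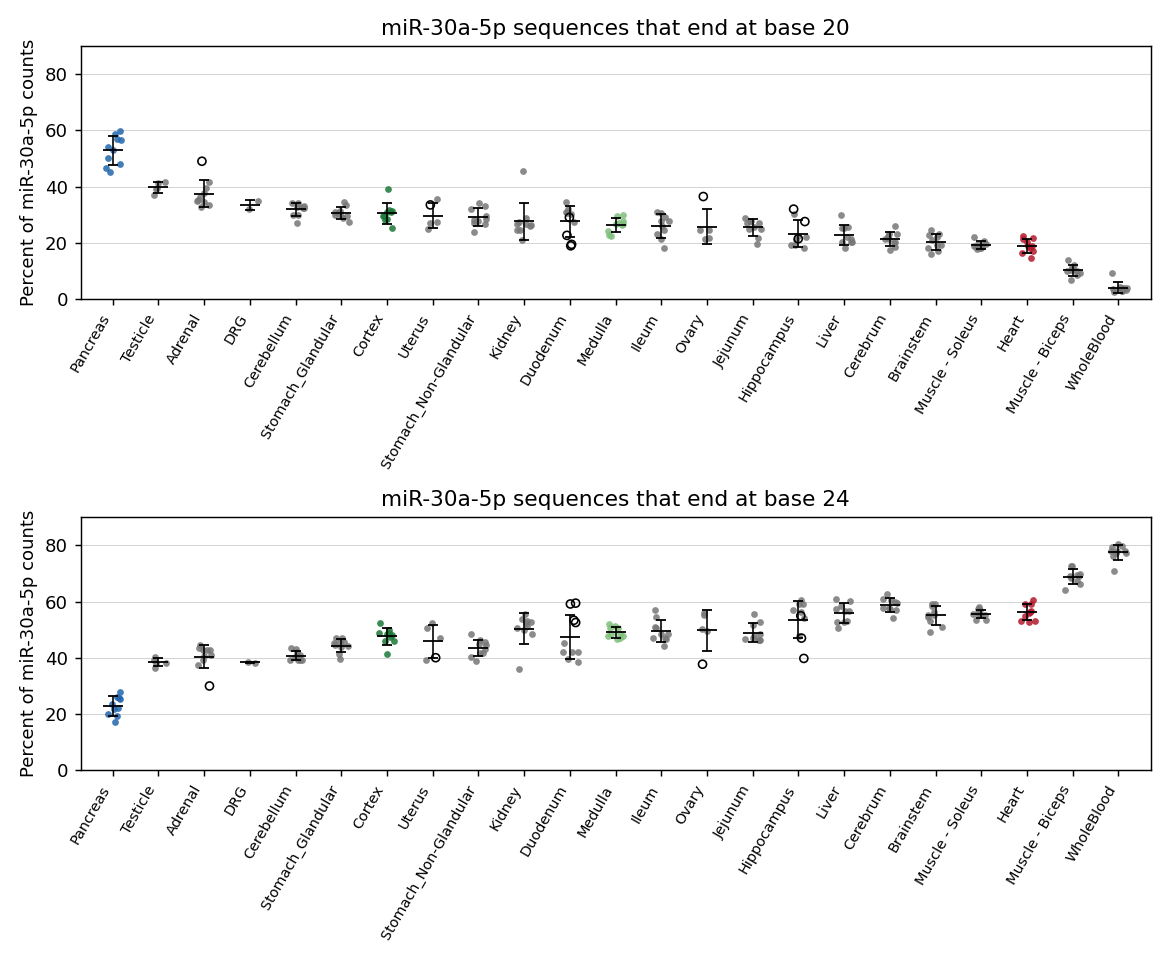
Percent of miR-30a-5p counts (y axis) that end at base 20 (top) and at base 24 (bottom) in each tissue, both ordered by the mean at base 20. Points are rats (DRG: pools), bars mean ± SD, and open circles libraries out of place. Pancreas is highest at base 20 (52.9%) and lowest at base 24 (22.9%), and WholeBlood is at the other end of both.

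The low RIN and the re-extraction of all Pancreas samples apply to these ends too. In tissues with both kinds of extraction the end at base 20 had means of 22.7% (first, n = 5) and 22.9% (re-extracted, n = 5) in Liver, 30.2% and 31.5% in Cortex (n = 8 and 2), 24.4% and 29.9% in Kidney (n = 4 and 6, 1 re-extracted library at 45.5%) and 11.3% and 8.74% in Muscle - Biceps (n = 6 and 4). They were 26.5% and 30.2% in Duodenum (n = 7 and 3), 25.6% and 25.1% in Jejunum (n = 8 and 2), 19.3% and 18.8% in Muscle - Soleus (n = 8 and 2) and 20.7% and 17.1% in Brainstem (n = 9 and 1). All of these libraries but that 1 in Kidney lay below the lowest Pancreas library at 45.3%. No other tissue with a RIN in the labels had one below 6. Markers of other cell types differed between the 4 tissues as well. The blood list (miR-451-5p, miR-144-3p and miR-486-5p) had a summed level of 44659 to 93742 CPM in Heart, against 2147 to 11575 CPM in Cortex, 1522 to 3720 CPM in Medulla and 408 to 765 CPM in Pancreas, none of the 3 markers at a median of 0. Muscle - Biceps (43596 to 74282 CPM) and Muscle - Soleus (34586 to 64861 CPM) were near Heart. Cerebellum had a median of 23019 CPM and Liver one of 9973 CPM. After WholeBlood the list was thus highest in Heart and the skeletal muscles. The sum cannot tell blood from a marker counted in muscle itself. Heart also stood above Cortex, Medulla and Pancreas without overlap in the endothelium list (miR-126a-3p and miR-126a-5p, 21204 to 27816 CPM in Heart and at most 11208 CPM in the others) and in the smooth muscle list (miR-143-3p and miR-145-5p, 72462 to 96755 CPM in Heart and at most 41906 CPM in the others). WholeBlood had the highest share of miR-30a-5p ending at base 24 and the largest miR-30e-5p share, and the part of blood, endothelium and smooth muscle in the Heart values was not tested.

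The 5′ end sets the seed, so a shifted start changes it. The 22-base miR-30a-3p was the leading sequence, and the sequence that starts 1 base later, with the seed UUCAGUC, took 15.4% of that name's counts over all libraries. In 14 runs of 1 flow cell lane 48.6% to 51.2% of miR-30a-5p counts started 1 base before the reference, against 0% to 0.115% in the other 444 runs, so starts were compared without that lane. miR-30a-3p then had other starts in 31.0% of counts in Medulla, 31.0% in Heart, 30.7% in Cortex and 26.2% in Pancreas. miR-30e-3p had a lowest value of 5.26%, a median of 6.80% and a highest of 7.46% in Heart, against 2.83%, 3.72% and 4.54% in Cortex and 2.43%, 3.35% and 3.80% in Medulla. Heart did not overlap the kidney parts, and the difference was -2.88 points for Cortex minus Heart and -3.27 for Medulla minus Heart (permutation tests, adjusted p = 4e-05 each). Leaving out the lane was chosen after the data were seen. With the lane kept, Cortex minus Heart passed the threshold (-9.39 points, adjusted p = 5.25e-05) and Medulla minus Heart did not (-3.26 points, adjusted p = 0.642, permutation tests). Pancreas (3.98%, 5.26% and 8.42%) overlapped Heart (difference of Heart minus Pancreas 1.07 points, adjusted p = 0.0586). For miR-30a-5p other starts were rare in all 4 tissues, with means from 0.135% in Pancreas to 0.256% in Medulla and in Heart.

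Members that share a locus can be set against each other without any library total. The log2 ratio of miR-30d-5p to miR-30b-5p had a lowest value of 1.52, a median of 1.84 and a highest of 2.05 in Pancreas, the lowest mean of the 23 tissues (1.81 ± 0.16, SD, n = 10). In Heart it was 2.98, 3.40 and 3.76, and the means of Medulla and Cortex were 3.16 and 3.10. Pancreas was below every library of the other 3 tissues (permutation tests, adjusted p = 1.44e-05 each). Cortex was lower than Heart by 0.31 (adjusted p = 0.0154), but not past the threshold without rat 4 (0.22, adjusted p = 0.0541). WholeBlood was highest with a mean of 5.10, well above Cerebrum with 3.47.

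The 3p arms of miR-30c separate its precursors, which give the same 5p strand. The log2 ratio of miR-30c-2-3p, from chromosome 9, to miR-30c-1-3p, from chromosome 5, had a lowest value of 2.26, a median of 2.92 and a highest of 4.09 in Pancreas, the highest mean of the 23 tissues (2.94). The means were 1.77 in Medulla, 1.74 in Cortex and 1.13 in Heart. Pancreas did not overlap Medulla or Heart and overlapped Cortex. Its mean exceeded that of Heart by 1.81 and that of Medulla by 1.17 (adjusted p = 1.44e-05 each) and that of Cortex by 1.20 (adjusted p = 0.000263). Heart was lower than Cortex (0.60, adjusted p = 0.00206) and Medulla (0.64, adjusted p = 0.000507), all by permutation test. In Jejunum the ratio was lowest at 0.06. By edgeR miR-30c-1-3p was higher in Cortex, Medulla and Heart than in Pancreas, with log2 fold changes of 2.06, 2.08 and 2.12. miR-30c-2-3p was higher in Cortex (0.94, adjusted p = 0.000149) and Medulla (1.00, adjusted p = 4.82e-05) than in Pancreas and was not called in Heart (0.39, adjusted p = 0.161). Both 3p arms were rare, with highest tissue means of 41.5 CPM for miR-30c-1-3p and 120 CPM for miR-30c-2-3p, and these ratios were added after the data were seen.

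**Figure D5:**
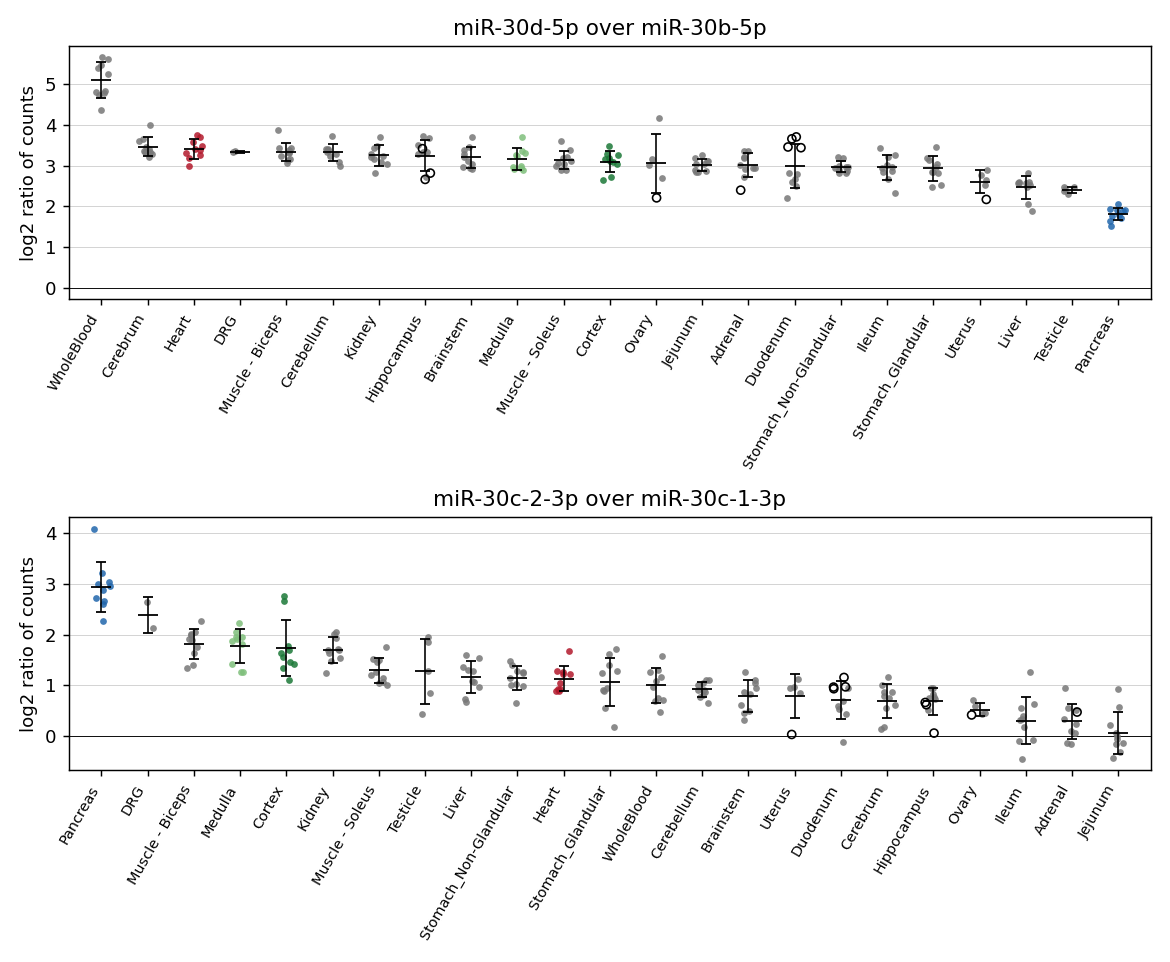
Log2 ratio of counts (y axis) of miR-30d-5p over miR-30b-5p (top) and of miR-30c-2-3p over miR-30c-1-3p (bottom) in each tissue, ordered by mean. Points are rats (DRG: pools), bars mean ± SD, and open circles libraries out of place. Pancreas is lowest in the top plot (1.81) and highest in the bottom plot (2.94).

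Sex was tested in the 19 tissues with both, female against male, with 5 rats in each group. Of 133 tests of the 7 members, edgeR called 3 (1.49% of all tests of 1122 names in these tissues were called), all of them lower in females in WholeBlood, where 3.12% of all names were called lower. miR-30e-5p had 597, 944, 1624, 1669 and 1771 CPM in females and 1351, 2442, 2549, 2758 and 2904 CPM in males. The sexes overlapped through 1 male. Its log2 fold change was -0.96 ± 0.25 (adjusted p = 0.00779). miR-30b-5p had 12.6, 24.01, 31.9, 38.6 and 46.2 CPM in females and 31.3, 38.1, 51.7, 63.0 and 86.0 CPM in males (log2 fold change -0.89 ± 0.24, adjusted p = 0.0144), and miR-30c-5p 175, 221, 384, 434 and 561 CPM against 333, 525, 571, 705 and 927 CPM (-0.82 ± 0.25, adjusted p = 0.037). Both overlapped. miR-30d-5p had a log2 fold change of -0.71 (adjusted p = 0.0567).

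These calls depended on single rats and on the test. Without rat 2, 9 or 10, 0 members were called, and without rat 3 there was 1. TMM scaling called 4 and a table with no filter on low counts 0. DESeq2 called 5, of which 4 were lower in females in WholeBlood and 1 was miR-30a-3p, higher in females in Duodenum (0.66, adjusted p = 0.00983), a tissue with 4 libraries out of place. When predicted and precursor names were left out, miR-30e-5p was called lower in female blood (-0.63, adjusted p = 0.0399), miR-30a-3p was called higher (0.54, adjusted p = 0.0135), and miR-30b-5p and miR-30c-5p were not called. The miR-486-5p composite took a mean of 86.1% of counts in female and 84.3% in male blood. In the 4 tissues compared above, 0 of 7 members were called between the sexes by edgeR in each of Cortex, Medulla, Heart and Pancreas, and 0 had an unadjusted p under 0.05. The share of all names called was 0.357% in Cortex, 0.178% in Medulla, 0.0891% in Heart and 0.178% in Pancreas.

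The members moved alike over the tissues. Over 23 tissue means in CPM, which share library totals, the Spearman correlation was 0.977 for miR-30c-5p and miR-30e-5p, 0.947 for the arms of miR-30a and 0.918 for miR-30b-5p and miR-30d-5p. It was lowest for miR-30a-3p and miR-30b-5p at 0.720. Outside the family the names closest to the family total were miR-499-5p (0.878), a miRNA of a myosin gene intron that is typical of heart and slow muscle, miR-339-3p (0.802), miR-499-3p (0.773), miR-190a-5p (0.772) and miR-126a-5p (0.771), an endothelial miRNA. miR-499-5p reached its highest tissue mean of 1034 CPM in Muscle - Soleus. These correlations describe the 23 tissues and were not tested.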

How the data were processed

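The authors trimmed adaptors with cutadapt 1.4.1, dropped short reads and reads with an N, collapsed identical sequences and assigned them to miRBase with miRDeep2. The deposited tables hold these reads as counts per run, for each miRNA name and each isomiR sequence, without normalization. Small RNA was sequenced in 458 runs of 215 libraries. Here 14 runs that name a lane already used by their library were set aside, and 444 were summed. CPM used the library total. The members, lists and measures were chosen with earlier results of these data known.

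The quasi-likelihood F test of edgeR 4.0.16 (R 4.3.3) was applied to names kept by filterByExpr with tissue as the group and scaled by their upper quartile, 1641 names in 207 samples for tissue and 1122 names for sex. Adjustment was by Benjamini-Hochberg and the threshold 0.05. Single values were tested by two-sided permutation (100000 resamples), adjusted over 6 family, 12 arm, 42 share, 84 end and 36 added tests. Sequence ends were placed against the RefSeq mature sequence or, where none was at hand, the most counted sequence. Alternatives were TMM scaling, DESeq2 1.42.0, no filter on low counts (with the factors of the filtered table), other runs, flow cells, names and libraries, each rat left out, and the rat as a replicate block. Same-numbered samples come from 1 rat. Deviations from the tissue means correlated weakly within a rat (median r 0.0179, 1808 pairs of samples) and not across rats (-0.00797, 16293 pairs). Non-members are named by 4 rules: the 5 names closest to the family total, seed sharers, comparator families and the most counted name of a tissue. Scripts were checked on simulated data. Python 3.11.15, numpy 2.4.6, scipy 1.17.1, pandas 2.3.3 and matplotlib 3.10.9 were used.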

Additional observations from a re-analysis of the deposited data

Results flagged for a closer look

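In 21 of 94 groups of 4 to 10 libraries 1 library stood far from the rest by Dixon's criterion, which flags about 1 group in 20 by chance. Of these 21 values, 6 came from 4 of the 10 libraries whose profile goes with another tissue. For the family total they were Adrenal of rat 8 (20876 CPM, group median 43182 CPM), Ovary of rat 11 (21190 CPM, median 44995 CPM) and Uterus of rat 8 (23512 CPM, median 10742 CPM). Duodenum of rat 7 was low in the log2 arm ratio of both miR-30a (4.46, median 6.57) and miR-30e (3.15, median 4.95), and Adrenal of rat 8 was also high in that of miR-30e (5.63, median 4.54).

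In the 4 tissues compared directly, 6 values stood apart. Medulla of rat 11 had a family total of 91839 CPM (median 113246 CPM). Heart of rat 10 had a miR-30e-5p share of 19.8% (median 24.3%), a miR-30e-3p share of 1.17% (median 0.749%) and a log2 arm ratio of miR-30e of 4.08 (median 5.04). Heart of rat 4 had a miR-30a-5p share of 50.1% (median 45.6%), and Cortex of rat 2 a miR-30d-5p share of 14.4% (median 12.2%).

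Elsewhere the family total was far from the group in Cerebrum of rat 9 (61436 CPM, median 75353 CPM) and Stomach_Non-Glandular of rat 8 (13642 CPM, median 7796 CPM). The log2 arm ratio of miR-30a was so in Brainstem of rat 11 (5.55, median 6.25), Cerebellum of rat 11 (7.44, median 6.76) and Uterus of rat 11 (6.15, median 6.51). That of miR-30e was so in Cerebrum of rat 9 (3.57, median 4.59), Kidney of rat 6 (4.40, median 5.24), Ovary of rat 9 (6.17, median 5.10) and Testicle of rat 3 (3.76, median 4.41). Of 18 tests of whether differences between these 4 tissues depend on sex, 0 passed (smallest adjusted p = 0.393, exact permutation tests).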

How the results depend on the processing

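The lower family total of Pancreas and the large share differences of Heart and Pancreas kept their direction and call under every alternative that gave them a value. Differences between Cortex, Medulla and Heart in the family total did not. Cortex minus Medulla was -0.15 with the most counted name out of the total, -0.32 as a ratio to let-7 and miR-98 and -0.31 with upper quartile factors. Cortex minus Heart was -0.15 with the most counted name out and -0.19 with upper quartile factors. Medulla minus Heart was -0.0401 in flow cell D1GBMACXX alone, -0.00222 with the most counted name out and 0.35 as the ratio. The cause was not tested. Leaving out each rat gave ranges of 0.0011 to 0.0873, 0.0331 to 0.104 and -0.00982 to 0.0555.

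The log2 arm ratio of miR-30a for Cortex minus Medulla was 0.0669 in first extractions alone and -0.0743 to 0.0600 without 1 rat, and Heart minus Pancreas was -0.0600 to 0.00801. For miR-30e, Cortex minus Pancreas was 0.0129 and Heart minus Pancreas -0.325 in flow cell D1GBMACXX alone, and Cortex minus Heart 0.426 and Medulla minus Heart 0.336 (adjusted p = 0.0400, permutation tests) in first extractions alone, with fewer tests. Without 1 rat, Cortex minus Medulla was -0.0271 to 0.100, Cortex minus Pancreas -0.0882 to 0.0382, Heart minus Pancreas -0.435 to -0.330 and Medulla minus Heart 0.199 to 0.393. The miR-30a-5p share of Cortex minus Medulla was -3.06 to -2.09 points.

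With no filter on low counts, members called fell to 1 higher in Pancreas, 2 in Cortex against Heart, 0 in Medulla against Heart and 0 between the sexes. Without predicted and precursor names 4 were called in Cortex against Medulla, and with DESeq2 5 between the sexes. Without 1 rat the counts were 2 to 4 in Cortex against Heart, 2 to 4 in Medulla against Heart and 0 to 4 between the sexes.

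Other 5′ starts changed sign with the lane that holds an extra base. For miR-30e-5p, Cortex minus Heart was 0.308 in flow cell D1GBMACXX and 0.353 without the lane, and Cortex minus Pancreas 1.04, 0.906 and, over exact sequences alone, 0.745. For miR-30a-5p, Cortex minus Pancreas was 0.117 and 0.110. Without 1 rat these ran from -4.11 to 0.294, -3.35 to 0.900 and -4.43 to 0.109 points. The alternative without the lane was chosen after seeing the data. Sign changes between values that both missed the threshold (90 values of 46 results on single names and ends) are not listed.

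With the rat as a replicate block, miR-30a-3p in Medulla against Heart (adjusted p = 0.0837), miR-30b-5p in Medulla against Pancreas (0.103) and the miR-30b-5p share of Medulla against Heart (0.0794) were lost, and miR-30d-5p in Medulla against Heart was gained (-0.47, adjusted p = 0.0371). No other call changed with the block in edgeR fits or exact sign flips. Sex allows no block, since each rat has 1 sex. Pancreas has no first extractions, so that alternative gave it no value.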
